A study of Brachypodium distachyon with 4 samples.

Results

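A stretch of chromosome 3 in the grass Brachypodium distachyon was followed locus by locus in leaves of the mutant jmj1-1 and of the wild type Bd21-3. It comprised every listed locus from BRADI_3g27500v3 to BRADI_3g28300v3, which gave 116 loci of 35125 in the whole table and of 7573 on chromosome 3. The window was placed around BRADI_3g27827v3, BRADI_3g27840v3 and BRADI_3g27917v3 because their reads were much higher in jmj1-1 than in Bd21-3. The difference between the genotypes therefore chose the window, and it is given below as a description. The window was not switched on as a continuous run. Of its 116 loci, 4 were strongly higher in jmj1-1, and they stood among loci that were silent in both genotypes and tested loci with log2 fold changes between -0.41 and 0.45.

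There were 2 libraries of jmj1-1 and 2 of Bd21-3, an inbred wild-type line that the labels also give as the source of the mutant. All plants carried the same age and handling in the labels: leaf tissue on day 17, at leaf stage 4, taken 10 h after lights on in days with 20 h of light and 4 h of dark. The labels name no treatment for either genotype. A single mutant allele was sequenced, and the sources used here do not give its lesion. The labels do not say whether libraries came from separate or pooled plants, so the spread between libraries may be technical. Total counts were 13825916 to 16520046 reads per library, and 25946 to 26429 loci per library had a read.

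The mutant is named after the JmjC-domain proteins, enzymes that in plants and animals take methyl groups off lysines of histone tails. Such marks on histones lie over stretches of chromatin and are known to go with the silencing or the activity of the genes inside them, so neighbouring genes can share a state or differ sharply at a boundary. In temperate grasses this chromatin regulation is best known from the control of flowering by cold and day length. Neither the files nor the RefSeq gene table used here joins the identifiers of the window to a protein, so no role can be given for its members, and leaf identity was not checked by markers. In BRADI identifiers the digit before g is the chromosome, and the last number runs along it. Numbers between the original multiples of 10 were mostly given to gene models added in later annotations. Distances are given here as places in this order, since genome coordinates of these identifiers were not used here.

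The 4 loci that rose all lay within 19 consecutive listed loci, with BRADI_3g27820v3 as the only one that the choice of the window had not named. BRADI_3g27827v3 lies 4 places after BRADI_3g27820v3, BRADI_3g27840v3 is the next listed locus, and BRADI_3g27917v3 lies 13 places further on. Together the 4 loci had 1038 and 803 reads in the jmj1-1 libraries, against 17 and 15 reads in the Bd21-3 libraries. Within the window these were 1038 of 33447 and 803 of 29127 reads in jmj1-1, against 17 of 32516 and 15 of 32293 reads in Bd21-3. In leaf tissue taken as a whole, a transcript read in a few cells and a low level in all cells cannot be told apart.

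**Figure D1:**
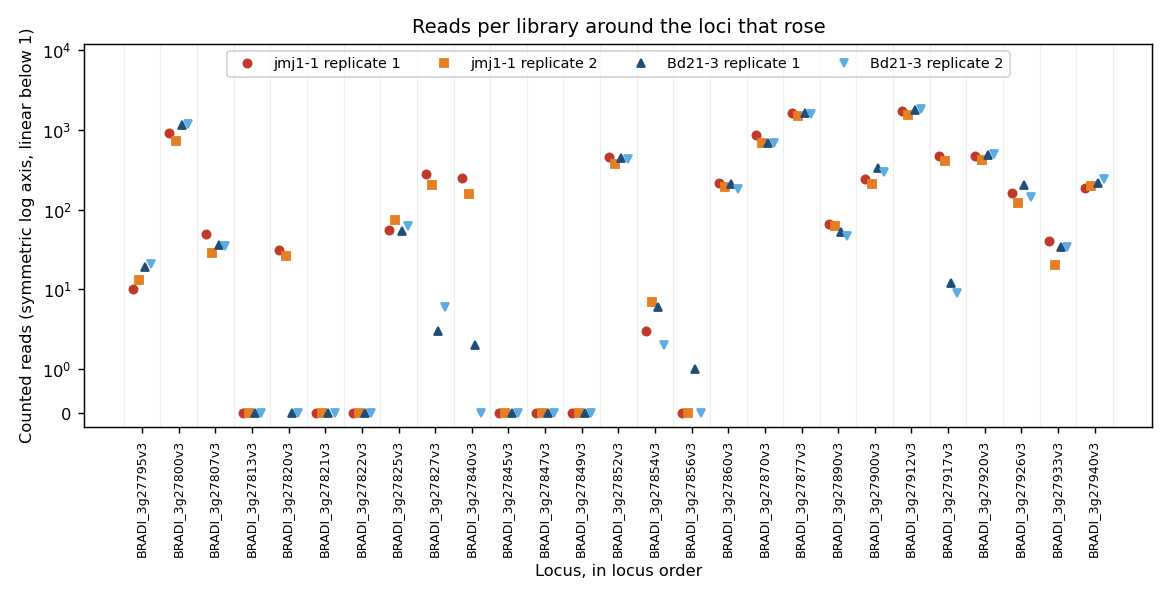
Counted reads on a symmetric log axis (linear below 1) in the jmj1-1 libraries (circles and squares) and the Bd21-3 libraries (triangles) for BRADI_3g27820v3 to BRADI_3g27917v3 with 4 listed loci on either side, in locus order. The 4 loci that rose have 26 to 478 reads in the jmj1-1 libraries and 0 to 12 reads in the Bd21-3 libraries, while the loci next to them are at 0 in every library or are read in all 4 libraries.

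BRADI_3g27917v3 had 478 and 411 reads in the jmj1-1 libraries, against 12 and 9 reads in the Bd21-3 libraries. In CPM, the usual scaling of reads by library size, it averaged 29.2 ± 0.15 CPM in jmj1-1 and 0.655 ± 0.12 CPM in Bd21-3 (SD, n = 2 each). Both jmj1-1 libraries were far above both Bd21-3 libraries, and the locus was read at a low level in each Bd21-3 library. The log2 fold change of jmj1-1 over Bd21-3 was 5.46 (SE 0.19). The ratio of summed reads after scaling was 44.5 (exact 95% Clopper-Pearson interval 29.0 to 72.3, for counting error only).

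BRADI_3g27827v3 had 281 and 207 reads in the jmj1-1 libraries, against 3 and 6 reads in the Bd21-3 libraries. It averaged 15.9 ± 1.8 CPM in jmj1-1 and 0.282 ± 0.14 CPM in Bd21-3 (SD, n = 2 each). The groups were again far apart, with few reads in each Bd21-3 library. Its log2 fold change was 5.79 (SE 0.28), and the ratio of summed reads was 57.0 (exact 95% interval 29.8 to 125.5). The fitted log2 fold change was 5.37 without Bd21-3 replicate 1 and 6.37 without Bd21-3 replicate 2.

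BRADI_3g27840v3 had 248 and 159 reads in the jmj1-1 libraries, against 2 and 0 reads in the Bd21-3 libraries. It averaged 13.2 ± 2.8 CPM in jmj1-1 and 0.0618 ± 0.087 CPM in Bd21-3 (SD, n = 2 each). The locus was close to silent in the wild type, with both of its reads in replicate 1. The ratio of summed reads was 214.1, with a wide exact 95% interval of 58.9 to 1774 set by those 2 reads. The fitted log2 fold change was 7.57 (SE 0.40) and 6.66 without Bd21-3 replicate 2. Without Bd21-3 replicate 1 no wild-type read was left, and the fitted 10.69 is no bound.

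BRADI_3g27820v3 had 31 and 26 reads in jmj1-1 leaves, whereas neither Bd21-3 library held a read of it. It averaged 1.87 ± 0.043 CPM in jmj1-1, and the 0 reads of Bd21-3 allow up to 0.185 and 0.190 CPM in its libraries, the worth of 3 reads in each. For the observed 57 reads against 0, the exact 95% interval of the ratio started at 15.7 and was open above. The jmj1-1 libraries lay close together here, as they did for BRADI_3g27917v3. They were wider apart at BRADI_3g27827v3, with 17.2 and 14.7 CPM, and at BRADI_3g27840v3, with 15.2 and 11.3 CPM. With 2 libraries per genotype these distances are imprecise, and their differences between loci were not tested.

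The 15 other loci between BRADI_3g27820v3 and BRADI_3g27917v3 included none called at 4-fold or more. Of these, 5 had no read in any library. BRADI_3g27821v3 and BRADI_3g27822v3 stand between BRADI_3g27820v3 and the next locus with reads, and BRADI_3g27845v3, BRADI_3g27847v3 and BRADI_3g27849v3 directly follow BRADI_3g27840v3. A further 2 had too few reads to test. BRADI_3g27854v3 had 3 and 7 reads in jmj1-1, against 6 and 2 in Bd21-3, and BRADI_3g27856v3 had 0 reads in both jmj1-1 libraries, against 1 and 0 in Bd21-3.

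The remaining 8 loci of that stretch were read well enough to test, and their log2 fold changes lay between -0.41 and 0.45, with a median of 0.09. Of these 8, 2 were called, BRADI_3g27870v3 as higher and BRADI_3g27900v3 as lower, both described below, and over all tested genes 13.9% were called. The genotypes overlapped in CPM at 3 of the 8. Both jmj1-1 libraries lay above both Bd21-3 libraries at BRADI_3g27860v3, BRADI_3g27870v3, BRADI_3g27877v3 and BRADI_3g27890v3, and below them at BRADI_3g27900v3. Over all tested genes, 25.5% lay above and 25.3% below in this way. BRADI_3g27825v3, directly before BRADI_3g27827v3, had 56 and 74 reads in jmj1-1, against 54 and 62 reads in Bd21-3. Its groups overlapped in CPM, its log2 fold change was 0.24 (SE 0.23), and it was not called. The value turned to -0.08 without jmj1-1 replicate 2. BRADI_3g27912v3, directly before BRADI_3g27917v3, had 1714 and 1555 reads in jmj1-1, against 1760 and 1851 reads in Bd21-3. Its log2 fold change was -0.07 (SE 0.052), and it was not called.

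Directly after BRADI_3g27917v3, BRADI_3g27920v3 had 478 and 425 reads in jmj1-1, against 487 and 496 reads in Bd21-3. Its log2 fold change was -0.05 (SE 0.081), it was not called, and the sign turned (0.0044) under scaling by library totals. BRADI_3g27852v3, the first locus with reads after BRADI_3g27840v3, averaged 27.5 ± 1.3 CPM in jmj1-1 and 27.4 ± 0.17 CPM in Bd21-3 (SD, n = 2 each), a log2 fold change of 0.01 (SE 0.085). It was not called. The ratios of summed reads at BRADI_3g27825v3, BRADI_3g27852v3, BRADI_3g27912v3 and BRADI_3g27920v3 lay between 0.952 and 1.18, beside ratios of 44.5 and more at the loci that rose. BRADI_3g27852v3 was not among the loci named by rule. Other tested loci of the stretch reached 0.754 (BRADI_3g27900v3) and 1.37 (BRADI_3g27890v3). Reads of overlapping or antisense genes could have been shared in the counting, since the sources used here do not give its strand setting.

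Over the whole window, 70 of 116 loci (60.3%) had enough reads to test, beside 61.1% of all listed loci. A further 21 had reads in at least 1 library but too few, and 25 (21.6%) had none in any library, beside 19.1% of all listed loci. Of the 70 tested loci, 63 reached the read minimum in both Bd21-3 libraries. The other 7 were the 4 that rose and BRADI_3g27541v3, BRADI_3g27680v3 and BRADI_3g28190v3. The 4 that rose entered the test through their jmj1-1 reads alone.

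**Figure D2:**
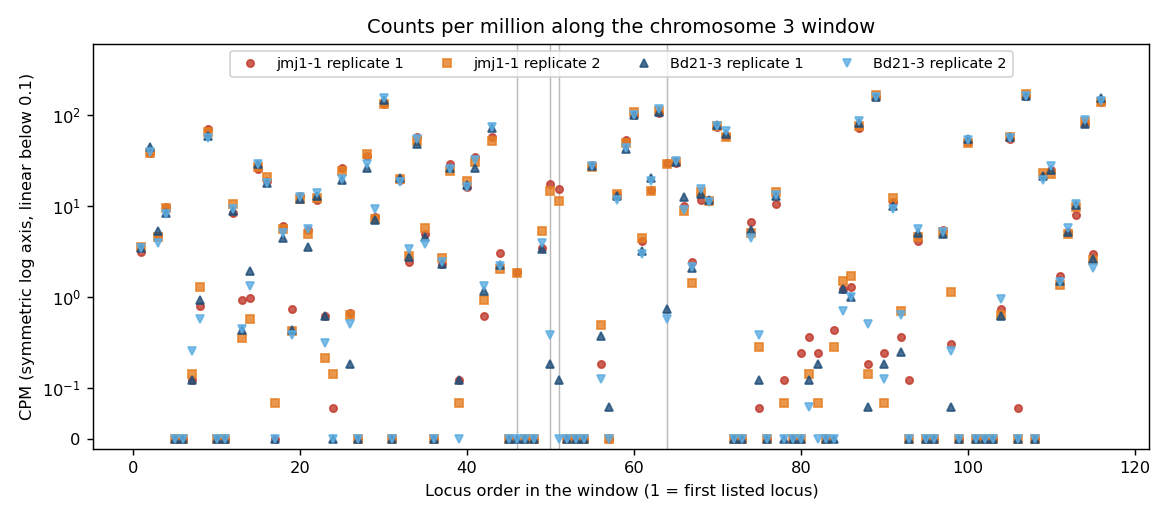
CPM of each of the 116 window loci in locus order, on a symmetric log axis (linear below 0.1), in the jmj1-1 libraries (circles and squares) and the Bd21-3 libraries (triangles), with vertical lines at the 4 loci that rose. At those lines the jmj1-1 libraries stand at 1.84 to 29.3 CPM and the Bd21-3 libraries at 0 to 0.741 CPM, and along the rest of the window the symbols of the 4 libraries mostly lie on top of each other.

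In edgeR's quasi-likelihood test across all genes, at an adjusted p of 0.05, 12 of the 70 tested loci were called. Of these, 8 were higher in jmj1-1 and 4 were lower. Over all 21456 tested genes, 13.9% were called, 6.13% as higher and 7.75% as lower. In the window the shares were 17.1%, 11.4% and 5.71%. The 4 loci called at 4-fold or more above Bd21-3 made up 5.71% of the tested window loci, and over all genes that share was 0.713%. The window was chosen on this difference, so these shares are a description. DESeq2 called 6 of the 70, with 5 higher and 1 lower. Over all 21456 tested genes it called 1283, with 515 higher and 768 lower.

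Both jmj1-1 libraries lay above both Bd21-3 libraries at 19 of the 70 loci (27.1%) and below them at 17 (24.3%). Over all tested genes these shares were 25.5% and 25.3%. All 12 called loci were among these, and so were 24 of the 58 that were not called. The 24 are given without the share among all genes that were not called, so nothing is read from them.

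**Figure D3:**
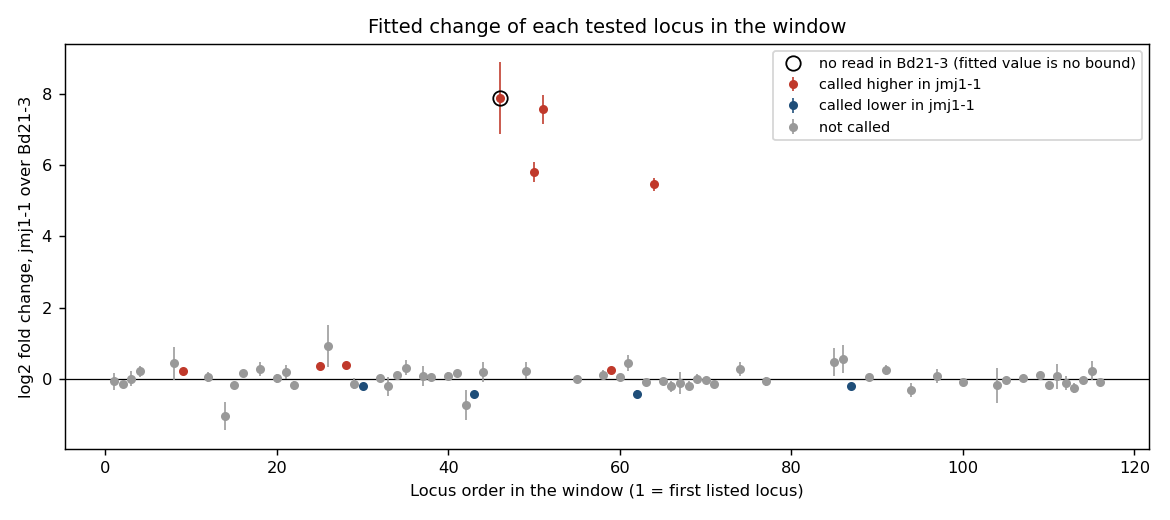
Log2 fold change of jmj1-1 over Bd21-3 for the 70 tested window loci, in locus order, with bars of 1 standard error, coloured by the call across all genes. The open ring marks BRADI_3g27820v3, which has no read in Bd21-3 and whose fitted value is no bound. The 4 strong rises stand between 5.46 and 7.88, and every other tested locus lies between -1.04 and 0.92.

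The other 8 called loci differed by small factors, and they are named here after their values were seen, except BRADI_3g27730v3. They were 8 of the 66 tested loci without the strong rises, and over all tested genes 13.9% were called. BRADI_3g27700v3 had 575 and 531 reads in jmj1-1, against 427 and 455 reads in Bd21-3, and rose by 0.40 on the log2 scale (SE 0.080). BRADI_3g27800v3, which lies 3 places before BRADI_3g27820v3, had 921 and 731 reads in jmj1-1, against 1151 and 1178 reads in Bd21-3, a log2 fold change of -0.42 (SE 0.062). These calls held in the 13 other settings tried, and at both loci the jmj1-1 libraries lay apart from the Bd21-3 libraries. In 4 of those settings a genotype is left with 1 library, and the spread is then estimated from the other genotype.

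BRADI_3g27550v3, BRADI_3g27670v3 and BRADI_3g27870v3 rose by 0.23 (SE 0.062), 0.38 (SE 0.093) and 0.26 (SE 0.068). BRADI_3g27870v3 lies inside the stretch between the strong rises, where it had 861 and 689 reads in jmj1-1, against 681 and 682 reads in Bd21-3. The calls of BRADI_3g27550v3, BRADI_3g27670v3 and BRADI_3g27870v3 were lost without jmj1-1 replicate 1, at log2 fold changes of 0.17, 0.32 and 0.20, and in DESeq2. Those of BRADI_3g27550v3 and BRADI_3g27870v3 were also lost without the expression filter.

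BRADI_3g27900v3, also inside that stretch, had 243 and 208 reads in jmj1-1, against 330 and 299 reads in Bd21-3, and fell by 0.41 (SE 0.11). Its call was lost without Bd21-3 replicate 1, at -0.35, and in DESeq2. BRADI_3g27730v3 had 2167 and 1839 reads in jmj1-1, against 2363 and 2443 reads in Bd21-3, and fell by 0.19 (SE 0.048). Its call was lost without jmj1-1 replicate 2, at -0.17, and in DESeq2. BRADI_3g28060v3 averaged 73.5 ± 3.3 CPM in jmj1-1 and 83.9 ± 2.5 CPM in Bd21-3 (SD, n = 2 each) and fell by 0.19 (SE 0.057). Its call was lost without jmj1-1 replicate 1 (-0.15), without Bd21-3 replicate 2 (-0.17), with library totals alone (-0.14), without the expression filter (-0.20) and in DESeq2 (-0.19).

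Of the 58 tested loci that were not called, 39 had a log2 fold change within 0.2 of no change and 4 were at 0.5 or more in size. BRADI_3g27590v3 had 16 and 8 reads in jmj1-1, against 31 and 21 reads in Bd21-3, a log2 fold change of -1.04 (SE 0.40). BRADI_3g27680v3 had 11 and 9 reads in jmj1-1, against 3 and 8 reads in Bd21-3, a log2 fold change of 0.92 (SE 0.59). The others were BRADI_3g27795v3 at -0.72 (SE 0.43) and BRADI_3g28055v3 at 0.56 (SE 0.38). All 4 rested on 31 reads or fewer in any library, and differences of this size did not pass the test at that depth.

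Apart from the 4 strong rises, the window's 66 tested loci had a median log2 fold change of 0.02 and an SD of 0.29 over loci. Over all 21456 tested genes the median was 0.0033 and the SD 0.53. Of the 66, 37 lay above 0 and 1 was at 2-fold or more, beside 2.74% of all tested genes at 2-fold or more. At these 66 loci the median absolute difference in log2(CPM + 0.5) between single replicates was 0.11 for jmj1-1 and 0.10 for Bd21-3. Over all tested genes these values were 0.10 and 0.11. Between the means of the genotypes the median absolute difference was 0.15, against 0.13 over all tested genes. A mean over 2 libraries varies less than a single library, so this value is not directly comparable with those between replicates.

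**Figure D4:**
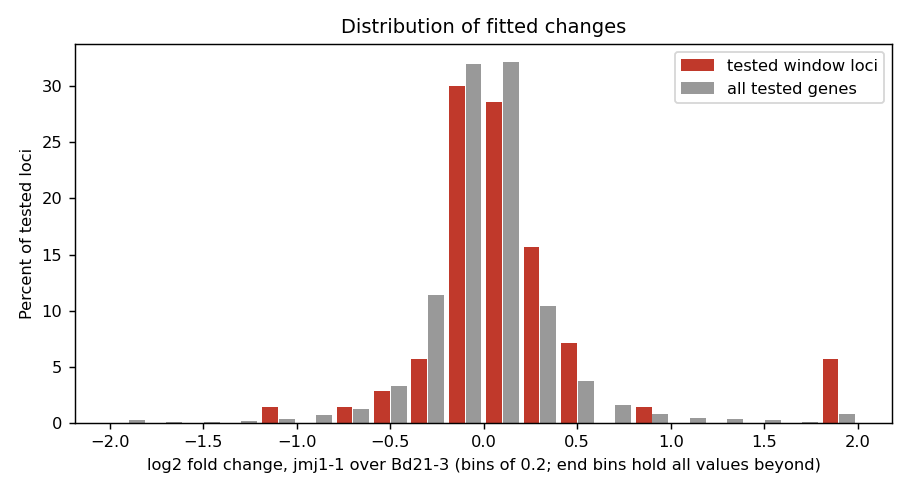
Percent of tested loci in bins of 0.2 of the log2 fold change of jmj1-1 over Bd21-3, for the 70 window loci and for all 21456 tested genes, with values beyond the axis in the end bins. Both sets centre near 0, at medians of 0.04 and 0.0033, and the end bin on the right holds the 4 strong rises, 5.71% of the window loci.

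Of the 5 loci with the most reads in the wild type, 1 was called, BRADI_3g27730v3, and over all tested genes 13.9% were called. Levels of different loci are not compared, since gene lengths were not available. BRADI_3g28220v3 had 2621 and 2389 reads in jmj1-1, against 2587 and 2559 reads in Bd21-3, a log2 fold change of 0.04 (SE 0.047). BRADI_3g28070v3 had 2569 and 2326 reads in jmj1-1, against 2533 and 2458 reads in Bd21-3, a log2 fold change of 0.05 (SE 0.047). Neither was called. BRADI_3g28300v3, the last locus of the window, had 2230 and 1952 reads in jmj1-1, against 2454 and 2245 reads in Bd21-3, a log2 fold change of -0.09 (SE 0.048), and was not called. It was called without Bd21-3 replicate 2, at -0.14. BRADI_3g27912v3, described above, was also among the 5 and was not called.

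The smaller changes were counted on either side of the strong rises. Over all tested genes, 6.13% were called higher and 7.75% lower. Before BRADI_3g27820v3, 45 loci included 30 tested, of which 3 were called higher and 2 lower, with a median log2 fold change of 0.08. After BRADI_3g27917v3, 52 loci included 28 tested, of which none was called higher and BRADI_3g28060v3 was called lower, with a median of -0.04. The difference between these sides was not tested.

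Among the loci with few reads, BRADI_3g28040v3 was read in jmj1-1 alone. It had 7 and 4 reads in jmj1-1 leaves and none in Bd21-3 leaves, and the exact 95% interval of the ratio started at 2.64 and was open above. It had too few reads to be tested. BRADI_3g28130v3, chosen after its values were seen, had 5 and 16 reads in jmj1-1, against 1 and 4 reads in Bd21-3, a ratio of 4.42 (exact 95% interval 1.62 to 15.0).

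Summed over the 21 untested loci with reads, there were 158 reads in jmj1-1, against 106 reads in Bd21-3. The ratio after scaling was 1.57 (exact 95% interval 1.22 to 2.02, for counting error only). Much of the surplus came from BRADI_3g28130v3, with 21 reads in jmj1-1 against 5 in Bd21-3, and BRADI_3g28040v3, with 11 against 0. Of the 21, 16 had more CPM in jmj1-1, among them BRADI_3g27621v3 and BRADI_3g28210v3 on 1 read against 0. The same sum over all 6962 untested loci with reads in the table was 35667 reads in jmj1-1, against 32721 reads in Bd21-3, a ratio of 1.15 (1.13 to 1.16), with 3886 loci higher in jmj1-1. The sum was thus higher in jmj1-1 across the table as well.

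The 25 loci without a read were unevenly spread over the 2 kinds of identifier. Among loci whose number ends in 0, 7 of 61 (11.5%) had no read, and among those with another last digit 18 of 55 (32.7%) had none. Over all BRADI loci on the chromosomes these shares were 8.11% and 30.0%. Of the 4 strong rises, BRADI_3g27820v3 and BRADI_3g27840v3 have numbers that end in 0, and BRADI_3g27827v3 and BRADI_3g27917v3 do not.

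At the limits of the window there was no strong rise. BRADI_3g27500v3, the first locus inside, had 51 and 50 reads in jmj1-1, against 56 and 55 reads in Bd21-3, and BRADI_3g27492v3, the last locus before it, had 79 and 77 reads in jmj1-1, against 98 and 103 reads in Bd21-3. Their log2 fold changes were -0.06 and -0.29. The latter is larger in size than some changes called in the window, such as -0.19 at BRADI_3g27730v3, and its call is not given here. BRADI_3g28302v3, the first locus beyond the end, had 47 and 59 reads in jmj1-1, against 59 and 49 reads in Bd21-3, a log2 fold change of 0.05.

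The 116 loci listed before the window had 65 tested, 3 called higher and 3 called lower. The 116 listed after it had 75 tested, 2 called higher and 7 called lower. Over all tested genes the shares were 6.13% higher and 7.75% lower. Neither of these flanking stretches held a locus called at 4-fold or more above Bd21-3. Close pairs of such loci also occurred elsewhere. Of the 148 loci on the chromosomes outside the window called at 4-fold or more above Bd21-3, 54 had another within 10 listed places on the same chromosome. On chromosome 3 there were 41 such loci among 4843 tested (0.847%), the 4 of the window included.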

How the data were processed

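Leaf mRNA libraries of jmj1-1 (n = 2) and Bd21-3 (n = 2) were made with a stranded kit, as the labels' protocols say. The authors deposited raw read counts per locus, whole numbers with 1 column per library, per the file headers and values. The tools listed in the submitters' processing notes are HISAT2, SAMtools, cutadapt and featureCounts, in no stated order. The sources used here give no versions, genome build, strand setting or handling of reads with several matches. Near-identical copies and overlapping genes may therefore have shared reads.

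The genotype comparison used edgeR 4.0.16 in R 4.3.3 (filterByExpr defaults, TMM scaling, quasi-likelihood F-test of genotype with the method of edgeR 4, two-sided, Benjamini-Hochberg adjustment over all 21456 tested genes, threshold 0.05). Standard errors were derived from each log2 fold change and its F statistic. CPM used TMM-scaled library sizes, computed here. The replicates were not copies: chi-square per degree of freedom was 1.85 (jmj1-1) and 2.41 (Bd21-3), against 9.02 between replicate 1 of each genotype. Alternatives were other scalings, filters, DESeq2 1.42.0, limma-voom (limma 3.58.1), a replicate block, each library left out, an adjusted p of 0.01 and a narrower window.

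Named loci were the 3 that placed the window, loci called at 2-fold or more, the loci next to the 3, the 5 with the most Bd21-3 reads, and loci with 10 or more reads in one genotype and none in the other. The members and lists were chosen with earlier results of these data known. The RefSeq table of assembly Brachypodium_distachyon_v3.0 matched 0 of the identifiers, so sequences, lengths and coordinates were not used here.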

Additional observations from a re-analysis of the deposited data

How the results depend on the processing

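The 4 strong rises were called higher in jmj1-1 in all 13 alternative fits, and their fitted log2 fold changes ranged from 5.28 to 5.66 (BRADI_3g27917v3), 5.37 to 6.37 (BRADI_3g27827v3), 6.66 to 10.69 (BRADI_3g27840v3) and 5.93 to 7.94 (BRADI_3g27820v3). The upper end for BRADI_3g27840v3 and both ends for BRADI_3g27820v3 rest on 0 reads in Bd21-3 and are no bounds. The window held 12 calls, 8 higher and 4 lower. DESeq2 gave 6, with 5 and 1 (the cause was not tested). With a library left out there were 9 to 14 calls, 6 to 10 higher and 3 to 4 lower, and the narrower window from BRADI_3g27700v3 to BRADI_3g28050v3 gave 9. Over all genes, 2978 calls (1315 higher, 1663 lower) became 1788 (746 and 1042) without the expression filter, 1283 (515 and 768) in DESeq2 and 1954 (837 higher) at an adjusted p of 0.01, which lowers the count by construction. Library totals alone gave 2041 higher genes and 64.1% higher among calls, against 44.2% with TMM, and 8 higher and 3 lower calls in the window. For the filter and the scaling the cause was not tested. With a library left out there were 1792 to 2856 calls, 749 to 1236 higher and 1042 to 1620 lower, with less power and with the spread taken from the genotype that still had 2 libraries. BRADI_3g27825v3 ranged from -0.0755 (without jmj1-1 replicate 2) to 0.53 (without jmj1-1 replicate 1), and BRADI_3g27920v3 turned to 0.0044 with library totals alone. The replicate block gave 3140 calls over all genes and 12 in the window. The labels do not say whether same-numbered libraries share a batch. The correlation of their deviations was -0.017, which cannot decide this with 2 libraries per genotype. BRADI_3g27550v3 and BRADI_3g27870v3 also lost their calls without the filter and in DESeq2, as did BRADI_3g28060v3, and BRADI_3g27670v3, BRADI_3g27730v3 and BRADI_3g27900v3 in DESeq2. The older quasi-likelihood method, chosen after seeing the data, gave 2956 calls and 12 in the window. At 13825916 to 16520046 reads per library, loci such as BRADI_3g27820v3 and BRADI_3g28040v3 rest on few reads.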
